A study of Mus musculus with 36 samples.

Results

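Liver sinusoidal endothelial cells were compared between mice sampled 36 h after injection of diphtheria toxin to deplete Kupffer cells and mice injected with phosphate-buffered saline, which the labels call WT. The comparison holds 8 of the 36 RNA-seq libraries of the series. These are 4 libraries at 36 h and 4 WT libraries, chosen by their titles alone, and 4 further endothelial libraries from 12 h after the toxin are used beside them. All animals were C57BL/6 mice and the cells came from liver. The remaining libraries are stellate cells and hepatocytes of the same 3 conditions. The labels name no transgene and give neither sex nor age, so the toxin, the loss of Kupffer cells and any difference in genotype cannot be told apart. They do not tie each library to its own mouse, so the p-values measure the spread between these libraries, which may be technical in part. Replicate 4 at 36 h carried more RNA of other liver cells than the rest, and results are given with it and without it.

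Sinusoidal endothelial cells line the capillaries of the liver. They have open pores and no continuous basement membrane, and they take up waste molecules from blood through scavenger receptors. They are the surface to which Kupffer cells, macrophages that live in these vessels, are attached, and they are known sources of CSF1, the growth factor macrophages need, and of Notch ligands and BMPs. When Kupffer cells are lost, blood monocytes enter the liver and replace them, and the series asks which signals from the neighbouring cells act on those monocytes. Interferons induce in many cells, endothelium included, a family of large and small GTPases that act against intracellular microbes, and the proteins that load peptides onto class I molecules.

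The sequences upstream of 5 genes of these families are shown because every tested member of both families had a higher mean at 36 h than in WT. Each run is the 250 bases before the annotated start of the gene, 5′ to 3′ on the gene's strand, from RefSeq on GRCm38.p6. Capitals mark letters of an interferon-stimulated response element core, TTTCNNTTT, of a STAT site, TTCNNNGAA, or of an NF-kB site, GGGANTTTC, read on either strand.
Igtp, chr11:58199306-58199555, plus strand: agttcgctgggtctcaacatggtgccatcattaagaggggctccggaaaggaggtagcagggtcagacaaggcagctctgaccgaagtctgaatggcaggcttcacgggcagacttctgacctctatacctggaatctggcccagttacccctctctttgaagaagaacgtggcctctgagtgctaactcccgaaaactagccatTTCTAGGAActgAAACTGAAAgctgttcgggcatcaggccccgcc
Irgm2, chr11:58214727-58214976, plus strand: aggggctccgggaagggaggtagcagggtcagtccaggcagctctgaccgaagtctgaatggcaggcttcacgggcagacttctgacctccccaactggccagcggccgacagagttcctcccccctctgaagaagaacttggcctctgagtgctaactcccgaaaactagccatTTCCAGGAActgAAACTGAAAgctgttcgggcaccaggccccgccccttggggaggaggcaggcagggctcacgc
Tgtp2, chr11:49064213-49064462, minus strand: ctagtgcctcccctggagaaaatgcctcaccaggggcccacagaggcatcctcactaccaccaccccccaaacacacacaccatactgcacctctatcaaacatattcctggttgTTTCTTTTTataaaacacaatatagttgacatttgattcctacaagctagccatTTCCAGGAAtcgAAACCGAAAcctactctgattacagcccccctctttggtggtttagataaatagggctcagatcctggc
Gbp2, chr3:142620413-142620662, plus strand: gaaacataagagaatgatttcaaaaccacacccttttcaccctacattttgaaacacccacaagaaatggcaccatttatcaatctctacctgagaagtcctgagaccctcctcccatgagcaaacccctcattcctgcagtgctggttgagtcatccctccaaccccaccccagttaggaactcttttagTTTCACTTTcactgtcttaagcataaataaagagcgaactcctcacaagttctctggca
B2m, chr2:122147437-122147686, plus strand: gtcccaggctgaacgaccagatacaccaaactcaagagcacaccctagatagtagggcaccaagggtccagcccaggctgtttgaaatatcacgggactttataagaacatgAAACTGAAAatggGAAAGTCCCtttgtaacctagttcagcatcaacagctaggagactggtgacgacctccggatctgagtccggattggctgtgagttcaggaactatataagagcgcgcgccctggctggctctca

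In Igtp, Irgm2 and Tgtp2, all on chromosome 11, the STAT letters lay 3 bases upstream of the core, as they did in Tgtp1. In Gbp5 and Gbp7, which also held both, 25 to 104 bases lay between them. The core began 33 bases before the start in Igtp, 63 in Irgm2 and 69 in Tgtp2, which held another core farther upstream. In Gbp2 on chromosome 3 the core stood without STAT letters in this window, and in B2m on chromosome 2 a core and NF-kB letters lay side by side. The table of promoters had entries for 10 of the 15 interferon-inducible GTPases, with 11 promoters between them. The core was in 10 of the 11 (90.9%), against 9.38% of all 32841 promoters of that length, and the STAT letters were in 6 (54.5%), against 7.02%. Of 15 promoters of antigen presentation genes, 3 held the core and 11 (73.3%) held the letters CCAAT, which 33.9% of all promoters hold. These matches are descriptions of letters, not binding sites.

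The deposited values were raw counts for 24421 gene symbols in each library. The 8 libraries held between 25404719 and 30090527 counts each, and 14207 to 14627 genes had a count. Levels are given as counts per 1000000 counts (CPM), scaled for differences in composition. They follow gene length and are compared only between libraries, not between genes. No 2 libraries were identical. The cells carried the labelled identity, since Stab2 stood at 3846 to 6297 CPM and Clec4g at 4824 to 6182 CPM in every one of the 8 libraries. Both encode surface receptors of sinusoidal endothelium.

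Markers of other liver cells were present at low levels and differed between libraries. Without Trf, the most abundant of 18 hepatocyte markers, the sum of the list was 92.4, 118, 381 and 665 CPM in 36 h replicates 1 to 4, against 60.8 to 257 CPM in the WT libraries. All 18 had counts in every library. The sum of 17 stellate cell markers without Ecm1 was 12.1, 52.9, 38.7 and 338 CPM at 36 h, against 13.7 to 17.8 CPM in WT, with 16 or 17 members counted in each library. The monocyte and neutrophil list without Plac8 summed to 7.0, 2.28, 11.8 and 27.4 CPM at 36 h and to between 6.70 and 14.0 CPM in WT. Of its 17 members 16 had a symbol in the data, and 7 to 13 of these were counted in each library. Replicate 4 was the highest of the 36 h libraries for all 3 lists, and replicate 3 came second for hepatocyte and monocyte markers. Dcn, a proteoglycan gene of stellate cells and fibroblasts, stood at 5.38, 25.1, 14.0 and 123 CPM at 36 h against 4.52 to 7.01 CPM in WT. In bulk samples, fewer cells of a type and less RNA per cell cannot be told apart.

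**Figure D1:**
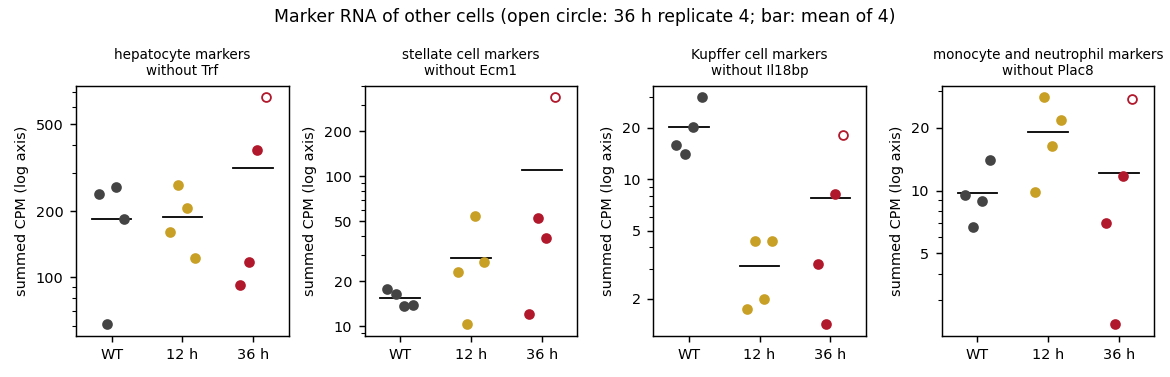
Summed CPM (log axis) of 4 marker lists, each without its most abundant member, in 4 WT, 4 12 h and 4 36 h endothelial libraries; each point is 1 library and the bar is the mean of 4. The open circle, 36 h replicate 4, is the highest 36 h library in all 4 panels, at 338 CPM for stellate markers against 12.1 to 52.9 CPM in the other 36 h libraries.

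No gene passed the test between 36 h and WT. Of 12286 genes tested with edgeR's quasi-likelihood test, 0 (0%) had an adjusted p under 0.05, and the smallest adjusted p was 0.161. At an unadjusted p under 0.05 there were 766 genes higher at 36 h (6.23%) and 522 lower (4.25%). All 4 libraries at 36 h lay above all 4 WT libraries for 460 genes (3.74%) and below them for 403 (3.28%). DESeq2, run on the same counts, called 87 genes higher (0.708%) and 22 lower (0.179%). The 95% interval of the change lay within a 2-fold range in both directions for 9803 genes (79.8%), so a change of over 2-fold fell outside the interval for these.

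Without 36 h replicate 4, 1 of 12385 genes passed (0.00807%). At an unadjusted p under 0.05, 433 genes were higher (3.5%) and 324 lower (2.62%). With 4 WT against 3 libraries, 648 genes lay fully above WT (5.23%) and 546 below (4.41%), shares that are not comparable with those for 4 against 4.

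The gene that passed was Pla2g16, which encodes a phospholipase of the cell membrane and of lipid droplets. It stood at 41.0, 31.0, 28.8 and 19.9 CPM at 36 h and at 11.4, 15.4, 10.6 and 11.7 CPM in WT. The groups did not overlap, and replicate 4 was the lowest of the 36 h libraries. Without that library Pla2g16 rose by a log2 fold change of 1.45 ± 0.17 (SE, n = 3 against 4, edgeR adjusted p = 0.0156). With all 4 libraries the log2 fold change was 1.30 ± 0.20 (SE, edgeR adjusted p = 0.161), and DESeq2 called it (adjusted p = 4.06e-06). Leaving out WT replicate 3 or 4, or 36 h replicate 1 or 2, besides replicate 4 ended the edgeR call. The mean at 12 h was 17.2 CPM, and the step from 12 h to 36 h was called (log2 difference 0.81, edgeR adjusted p = 0.00998).

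The genes with the smallest unadjusted p in each direction are given as values, none of them called by edgeR with all libraries; Saa1, Orm2 and Vsig4, also among them, are described further on. Tmem176a, a membrane protein gene of antigen-presenting cells, stood at 60.4, 54.4, 64.2 and 110.1 CPM at 36 h against 25.3 to 37.8 CPM in WT. C2, a complement protease, stood at 103, 89.9, 65.8 and 84.5 CPM against 37.0 to 56.9 CPM. On the scaling of all 36 libraries, WT means of Tmem176a were 983 CPM in stellate cells, 198 in hepatocytes and 23.5 in endothelium. Those of C2 were 404, 153 and 37.2 CPM. The part of RNA from other cells in these levels was not tested. On the lower side, Slc5a3, the transporter of myo-inositol, was at 25.5, 23.2, 22.9 and 17.2 CPM at 36 h against 32.0 to 48.8 CPM in WT, a log2 fold change of -0.86 (95% interval -1.17 to -0.56). Its groups did not overlap with or without replicate 4. Rc3h1, which encodes an RNA-decay protein that restrains inflammatory transcripts, was at 21.2 to 26.2 CPM at 36 h against 35.2 to 46.5 CPM. Cep68, a centrosome protein gene, was at 50.5 to 56.9 CPM against 69.2 to 73.7 CPM, and Fam102b at 47.5 to 58.8 CPM against 72.7 to 89.8 CPM. Each of these 6 genes had an edgeR adjusted p of 0.182 and was called by DESeq2. A gene outside this rule, Stox2, was the only call when 36 h replicate 1 was left out. It stood at 16.7, 8.96, 9.75 and 9.14 CPM at 36 h against 16.3 to 19.3 CPM in WT, with replicate 1 within WT.

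All 15 interferon-inducible GTPases tested had a log2 fold change above 0, 14 of them with an unadjusted p under 0.05 (6.23% of all genes), and 8 had 36 h libraries entirely above WT, against 3.74% of all genes. Their median log2 fold change was 1.18, and 1.36 without replicate 4, when 11 of 15 did not overlap, against 5.23% of all genes. The median over all genes tested was 0.00472 and -0.00391. None was called by edgeR with all libraries or without replicate 4. DESeq2 called Gbp2, Gbp3, Gbp5, Gbp8 and Tgtp1, but not Igtp, Irgm2, Tgtp2 or Iigp1. Over the alternative edgeR fits the adjusted p of Tgtp1 ran from 0.0437 to 0.754. Members named within the lists from here on, unless they belong to the panel and rule given in the processing notes, were chosen after their values were seen. Igtp, a GTPase of the vacuole membrane around parasites, stood at 340.0, 113, 653 and 120.0 CPM at 36 h against 55.1, 78.7, 96.7 and 79.5 CPM in WT. Irgm2, of the same immunity-related family, was at 586, 258, 873 and 278 CPM against 144, 206, 258 and 207 CPM. Tgtp2 was at 182, 80.2, 249 and 82.2 CPM against 34.3, 43.6, 66.2 and 50.3 CPM. In all 3 genes, whose upstream letters are shown above, replicates 1 and 3 were high, and replicates 2 and 4 were close to the highest WT library. The spread among the 36 h libraries was thus as large as the distance between the groups (for Igtp an SD of 254 CPM around a mean of 306 CPM, n = 4). The edgeR adjusted p of Igtp was 0.30 with a log2 fold change of 1.98 (95% interval 0.88 to 3.09).

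The guanylate-binding proteins are the large GTPases of the family. Gbp2, with 1 core in its promoter, stood at 157, 130.4, 226 and 113 CPM at 36 h against 86.3, 88.1, 88.9 and 90.6 CPM in WT. Gbp8 stood at 9.37, 7.09, 8.97 and 2.27 CPM against 1.30, 2.06, 2.29 and 1.74 CPM. Its first 3 libraries at 36 h were all above WT, whereas replicate 4 lay within the WT range. Without replicate 4 the log2 fold change of Gbp8 was 2.20 ± 0.32 (SE, edgeR adjusted p = 0.0864). Its mean at 12 h, 1.80 CPM, was near that of WT, 1.85 CPM, and the difference from 12 h to 36 h was called (log2 1.94, edgeR adjusted p = 0.00569).

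**Figure D2:**
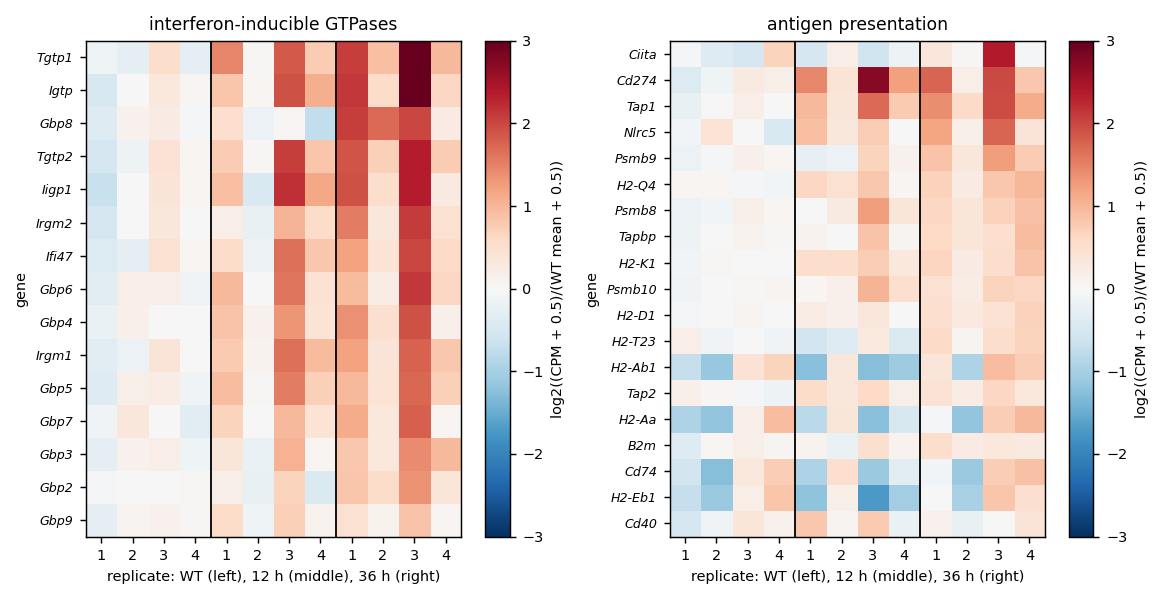
Heat maps of log2((CPM + 0.5)/(WT mean + 0.5)) for the interferon-inducible GTPases (left) and antigen presentation genes (right), 1 column per library and genes ordered by their log2 fold change at 36 h. Replicates 1 and 3 are the darkest red 36 h columns for the GTPases, where all 15 rows have a log2 fold change above 0.

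Genes of antigen presentation stood above WT by a smaller median. All 19 members tested had a log2 fold change above 0 (18 of 19 without replicate 4), 13 had an unadjusted p under 0.05 (6.23% of all genes) and 10 did not overlap (3.74% of all genes), and the median was 0.51. Without replicate 4 both counts were the same and the median was 0.46. The class I pathway carried the 10. Tap1, a subunit of the transporter that brings peptides into the endoplasmic reticulum, stood at 340.4, 191, 498 and 278 CPM at 36 h against 109.8, 128, 147 and 131 CPM in WT (log2 fold change 1.34, 95% interval 0.72 to 1.96, edgeR adjusted p = 0.237). Psmb9, a catalytic subunit of the immunoproteasome, was at 152, 106, 201 and 141 CPM against 74.2 to 92.8 CPM. The class I heavy chain H2-K1 was at 3104, 2359, 2875 and 3631 CPM against 1894, 2049, 2025 and 2016 CPM, and H2-D1 was at 2567 to 3340.3 CPM against 1984 to 2187 CPM. Here replicate 4, low for the GTPases, was the highest. B2m, the light chain of class I, was at 5619, 4616, 4799 and 4706 CPM against 2945, 4019.6, 4418 and 4138 CPM, a log2 fold change of 0.35. Class II genes overlapped between the groups, with a log2 fold change of 0.30 for Cd74 and 0.36 for H2-Aa. Reads of the class I genes may be split among close copies (H2-K1, H2-D1, H2-Q4), as may those of Tgtp1 and Tgtp2, so their separate levels are uncertain. Cd274, the ligand of the inhibitory receptor PD-1, stood at 152, 51.4, 178 and 79.2 CPM against 33.5 to 54.2 CPM, and its groups overlapped. No member of the list was called by edgeR. DESeq2 called Tap1, Psmb9, H2-K1 and H2-D1, but not B2m or Cd274.

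Classical interferon-stimulated genes had a smaller median still. Of 29 tested, 27 had a log2 fold change above 0, 8 an unadjusted p under 0.05 (6.23% of all genes) and 4 did not overlap against 3.74% of all genes (Ifit2, Oas2 and Zbp1 among them), with a median of 0.43. Without replicate 4 the median was 0.27, and 4 had an unadjusted p under 0.05 (3.5% of all genes). Zbp1, a nucleic acid sensor, stood at 19.0, 8.10, 27.6 and 18.7 CPM against 2.38 to 6.15 CPM. Its groups did not overlap, with replicates 1 and 3 the highest. Irf7 was at 222, 135, 262 and 584 CPM against 90.7 to 161 CPM, with replicate 4 the highest and replicate 2 within WT.

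**Figure D3:**
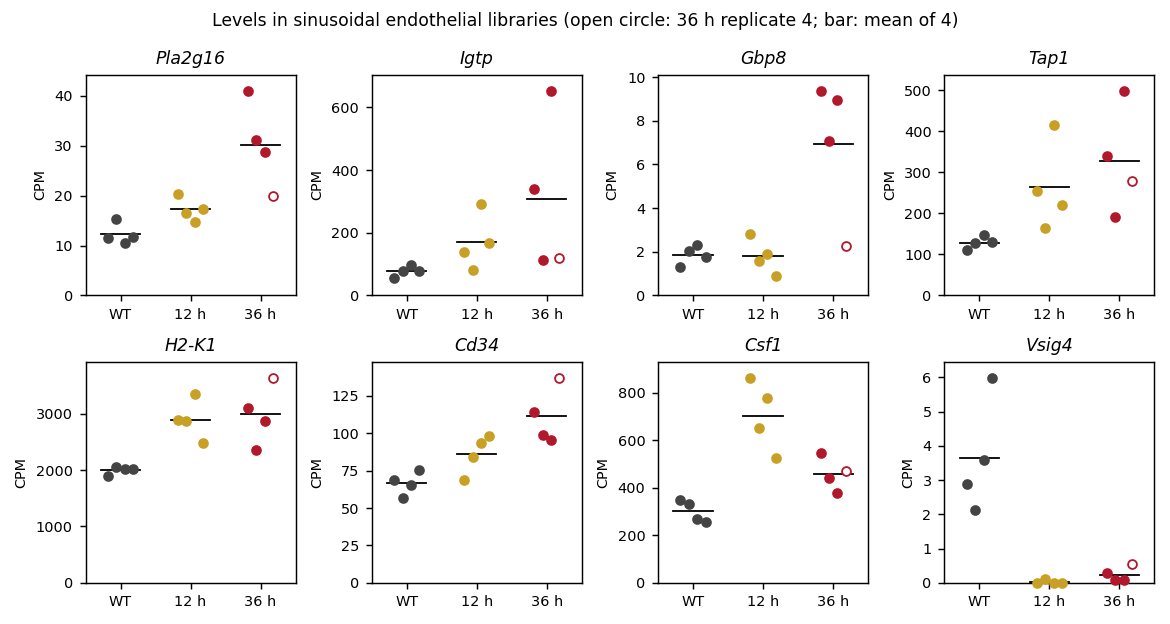
CPM (linear axes from 0) of 8 genes in WT, 12 h and 36 h endothelial libraries; each point is 1 library, the bar is the mean of 4 and the open circle is 36 h replicate 4. Pla2g16, Igtp, Tap1, H2-K1, Cd34 and Csf1 at 36 h lie above WT in all 4 libraries, Gbp8 does so in 3, and Vsig4 lies below WT in all 4.

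Acute phase genes are normally expressed by hepatocytes, and most encode secreted proteins. Of 24 tested, 22 had a log2 fold change above 0, 19 an unadjusted p under 0.05 (6.23% of all genes) and 8 did not overlap (3.74% of all genes), with a median of 1.76. Without replicate 4 the median was 1.22, and 12 were higher and 1 lower at an unadjusted p under 0.05, against 3.5% and 2.62% of all genes. Saa1, a serum amyloid A, stood at 6.19, 6.99, 20.2 and 40.7 CPM at 36 h and at 0.0701, 0.0381, 0 and 0.213 CPM in WT, where the 4 libraries together held 9 counts. Orm2 was at 0.541, 0.761, 2.54 and 4.27 CPM against 0 to 0.0711 CPM, a total of 3 counts in WT, so no fold is given. The hemoglobin-binding Hp was at 15.9, 20.4, 45.7 and 151 CPM against 2.32 to 7.68 CPM, and the heme-binding Hpx at 23.4, 28.4, 108 and 167 CPM against 5.79 to 14.3 CPM. The order of the 36 h libraries was the same for all 4 genes and was that of the hepatocyte marker sum. It was not the order of the list as a whole, which summed to 1738, 962, 2541 and 2739 CPM at 36 h. Without Serpina3g, its most abundant member, the list summed to 861, 561, 1378 and 1867 CPM, against 489 to 616 CPM in WT. Replicate 2 was the lowest 36 h library in both sums. No member was called by edgeR (adjusted p of Saa1 0.182). DESeq2 called all 4 genes, with an adjusted p of 4.06e-06 for Saa1, 0.000266 for Orm2, 0.00526 for Hp and 0.00176 for Hpx. It also called Saa2 and Saa3.

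Because of the order of Saa1, Orm2, Hp and Hpx, acute phase counts were set against those of Alb, the albumin gene, in the same library. This ratio was chosen after the values were seen. Alb itself overlapped between the conditions, with 29.4, 35.2, 131 and 200.4 CPM at 36 h and 91.9, 22.8, 109.7 and 71.7 CPM in WT. Per 1000 Alb counts, Saa1 had 210.3, 199, 155 and 203 counts in the 4 endothelial libraries at 36 h, against 0 to 2.98 in WT. The stellate cell libraries at 36 h had 141 to 207. The hepatocyte libraries at 36 h, in contrast, had 0.911 to 2.29. Orm2 had 18.4 to 21.7 counts per 1000 Alb counts in endothelium at 36 h and 0.868 to 1.28 in hepatocytes. The Hpx ratio was 795 to 834 in endothelium at 36 h and 161 to 351 in hepatocytes. The ratios of Hp and Saa2 varied more among the endothelial libraries at 36 h, at 541, 580, 350 and 753 for Hp and at 138, 171, 100 and 194 for Saa2. Ttr, a hepatocyte marker outside this list, also moved against Alb in endothelium, from 61.9 to 63.5 in WT to 90.2 to 144 at 36 h. In hepatocytes its ratio was 76.7 to 105 in WT and 85.9 to 110 at 36 h. The Apoa1 ratio in endothelium overlapped, at 151 to 323 in WT and 257 to 355 at 36 h. The ratio to Alb is thus no fixed scale. At 12 h the endothelial libraries split, with a Saa1 ratio of 2.98 and 12.3 in replicates 1 and 2 and of 215 and 218 in replicates 3 and 4. The stellate libraries at 12 h split by the same numbers, at 2.15, 6.40, 243 and 231 in replicates 1 to 4. The hepatocyte libraries at 12 h had 16.1, 40.0, 0.595 and 0.479. Which cells carried this RNA was not tested.

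**Figure D4:**
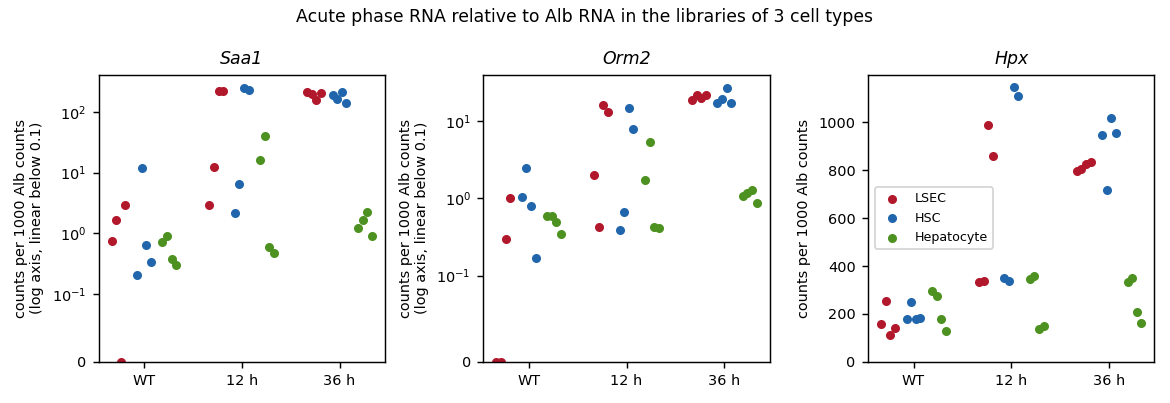
Counts of Saa1, Orm2 (log axes, linear below 0.1) and Hpx (linear axis) per 1000 Alb counts in the libraries of 3 cell types at WT, 12 h and 36 h; each point is 1 library. At 36 h the endothelial libraries lie at 155 to 210.3 for Saa1, the hepatocyte libraries at 0.911 to 2.29.

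Ligands through which endothelium is known to maintain and instruct macrophages were taken first. Of 14 macrophage niche ligands tested, 4 had a log2 fold change above 0 and 10 below, with a median of -0.15. Among these, 2 had an unadjusted p under 0.05 and were higher at 36 h (6.23% of all genes), Csf1 and Gdf2. Csf1 stood at 544, 441, 379 and 468 CPM at 36 h against 349, 330.3, 267 and 255 CPM in WT without overlap (log2 fold change 0.61, 95% interval 0.25 to 0.96, edgeR adjusted p = 0.308). DESeq2 called Csf1 (adjusted p = 0.0436). Gdf2, which encodes a BMP-family ligand, was at 0.372, 2.35, 2.81 and 24 CPM against 0.295 to 1.67 CPM. It is also a member of the stellate cell marker list, whose sum was highest in replicate 4. Its groups overlapped, and its log2 fold change of 3.34 became 1.34 without replicate 4. The Notch ligands Dll1 and Dll4 had log2 fold changes of -0.23 (95% interval -0.67 to 0.21) and -0.21 (95% interval -0.54 to 0.12). Bmp2 and Bmp6, ligands that also control hepcidin in hepatocytes, were at -0.23 (95% interval -0.71 to 0.24) and -0.01 (95% interval -0.45 to 0.43). Tgfb1 was at -0.10 (95% interval -0.37 to 0.18), and Gas6, a bridge between dying cells and their receptors, at -0.14 (95% interval -0.61 to 0.33). For Dll1, Dll4, Bmp2, Bmp6, Tgfb1 and Gas6 the 36 h libraries overlapped WT and a 2-fold change lay outside the interval.

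Among 11 Notch receptors and targets tested, 9 had a log2 fold change below 0, with a median of -0.25, and -0.32 without replicate 4. Notch4, the endothelial receptor, stood at 174, 178, 177 and 227 CPM at 36 h against 252, 239, 226 and 230 CPM in WT. The first 3 libraries were close together below WT and replicate 4 lay within it. Without replicate 4 its log2 fold change was -0.42 ± 0.08 (SE, edgeR adjusted p = 0.253). Of 13 VEGF, Tie and guidance receptors, 12 had a log2 fold change below 0, with a median of -0.11. Flt1, a VEGF receptor, was at 189.8, 158, 184 and 146 CPM against 265, 293, 216 and 196 CPM, without overlap. It was called by DESeq2 (adjusted p = 0.0391) but not by edgeR.

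Of 15 chemokines tested, 11 had a log2 fold change above 0, 8 with an unadjusted p under 0.05 (6.23% of all genes). The median was 1.07, and 1 of the 15, Cxcl11, did not overlap, against 3.74% of all genes. Without replicate 4 the median was 0.83, and 3 were higher and 1 lower at an unadjusted p under 0.05, against 3.5% and 2.62% of all genes. Cxcl10, an interferon-induced attractant of T cells, stood at 184, 56.1, 229 and 162 CPM at 36 h against 52.1, 85.6, 55.6 and 51.3 CPM in WT. Replicate 2 at 36 h lay within the WT range. The monocyte attractant Ccl2 was at 1.52, 2.08, 2.37 and 16 CPM against 0.771 to 1.60 CPM, so that the log2 fold change of 2.29 became 0.83 without replicate 4. The 16 adhesion molecules had a median of 0.02. Vcam1 stood at 248, 219, 179 and 312 CPM against 149 to 195 CPM, Icam1 at 239.9 to 347 CPM against 175 to 232 CPM, and the selectins Sele and Selp at 0.830 to 9.63 and 2.32 to 6.43 CPM against 0.818 to 2.44 and 1.18 to 4.19 CPM. Of these 4 genes Icam1 alone did not overlap. Of 15 continuous capillary and tip cell genes tested, 6 had a log2 fold change above 0 and 9 below, with a median of -0.07. Without replicate 4 the median was -0.21, with 11 below 0. Cd34, a sialomucin of this list, stood at 115, 99.0, 95.2 and 137 CPM against 56.6 to 75.7 CPM (log2 fold change 0.74, 95% interval 0.43 to 1.05, edgeR adjusted p = 0.182). Its log2 fold change was 0.63 without replicate 4. DESeq2 called Cd34 (adjusted p = 0.00115).

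Cell cycle genes had log2 fold changes above 0 in 37 of 38 members, 29 of them with an unadjusted p under 0.05 (6.23% of all genes). The libraries overlapped for all except 3, Plk1, Birc5 and Nusap1. Of all genes, 3.74% lay fully above WT. The median was 1.02. Without replicate 4 it was 0.68, and 19 had an unadjusted p under 0.05 (3.5% of all genes). Without Mcm3, the most abundant member, the list summed to 684, 998, 689 and 1550 CPM at 36 h against 466 to 846 CPM in WT. Replicates 1 and 3 at 36 h thus lay within the WT range of this sum. Plk1, a mitotic kinase, stood at 3.32, 6.78, 6.50 and 10.5 CPM against 2.68 to 3.23 CPM, and Birc5, a subunit of the complex that positions chromosomes, at 4.47, 8.20, 6.43 and 10.2 CPM against 1.12 to 4.04 CPM. Top2a, a topoisomerase of dividing cells, was at 18.9, 36.2, 20.1 and 33.3 CPM against 5.50, 21.4, 10.3 and 13.5 CPM. Mki67, a proliferation marker, differed less, at 3.18 to 5.32 CPM against 2.32 to 4.95 CPM (log2 fold change 0.27, 95% interval -0.61 to 1.14). The cell cycle inhibitor Cdkn1a was at 51.5, 77.3, 53.4 and 111 CPM against 56.7 to 134 CPM. WT replicate 1 was the lowest WT library for both Top2a and Birc5.

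Immediate early and heat shock genes, which respond within minutes to stress and handling, had log2 fold changes below 0 in 20 of 20 members tested, with a median of -1.10 and -1.12 without replicate 4. The WT libraries themselves disagreed. Fos stood at 1314, 4337, 366 and 228 CPM in WT and at 615, 520.5, 661 and 450.2 CPM at 36 h, and Egr1 at 515, 2732, 179 and 100.4 CPM against 285, 199.7, 298 and 184 CPM. For both genes WT replicates 1 and 2 were above, and WT replicates 3 and 4 below, all 36 h libraries. Without those 2 WT libraries, an alternative chosen after the data were seen, the log2 fold changes turned positive, to 0.92 for Fos and 0.79 for Egr1. Hsp90aa1, a chaperone gene, alone of the 20 did not overlap, at 44.2 to 51.0 CPM against 53.3 to 81.8 CPM. Of all genes, 3.28% lay fully below WT.

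Markers of Kupffer cells had log2 fold changes below 0 in 7 of the 8 members tested of 11, with a median log2 fold change of -1.56, and -2.67 without replicate 4. Vsig4, a complement receptor, stood at 0.271, 0.0692, 0.0677 and 0.558 CPM against 2.87, 2.13, 3.60 and 5.97 CPM. Timd4, a receptor for dying cells, was at 0, 0, 0.0338 and 0.446 CPM against 0.596 to 1.39 CPM. Clec4f, a lectin of Kupffer cells, was at 0 CPM in replicates 1 to 3 and at 0.446 CPM in replicate 4, against 0.427 to 2.49 CPM. Folr2, a folate receptor, was at 0.474, 0.484, 0.643 and 1.56 CPM against 1.79 to 2.77 CPM. On the scaling of all 36 libraries, Cd5l had means of 1.63 CPM at 36 h and 5.18 CPM in WT. The 36 h libraries ranged from 0.112 to 4.98 CPM and the WT libraries from 3.13 to 8.86 CPM. With 1 library left out, its log2 fold change ran from -3.34 to -1.29. Csf1r had means of 1.83 and 2.08 CPM, with 0.586 to 3.37 CPM at 36 h. Its log2 fold change ran from -0.66 to 0.15 with 1 library left out. None was called by edgeR (adjusted p of Vsig4 0.182, and 0.0926 without replicate 4), and DESeq2 called Vsig4 (adjusted p = 5.08e-06). Il18bp, counted among these markers, was the exception at 34.6 to 75.6 CPM against 24.7 to 26.8 CPM, a level far above the rest of the list. Without Il18bp the list summed to 3.21, 1.42, 8.19 and 18.1 CPM at 36 h, to between 14.0 and 30.2 CPM in WT and to between 1.75 and 4.37 CPM at 12 h, with 5 to 10 of 11 members counted at 36 h and 10 or 11 in WT. Replicate 4 therefore lay within WT. The C1q chains and the ficolin gene Fcna, a separate list of 4, had 2 log2 fold changes above 0 and 2 below. Their median was 0.12, and -0.61 without replicate 4, when all 4 were below 0. They summed to 12.9, 15.1, 36.9 and 75.9 CPM at 36 h against 18.1 to 42.9 CPM in WT. On the scaling of all 36 libraries, Fcna had WT means of 1996 CPM in stellate cells and 2.89 CPM in endothelium. The part of stellate cell RNA in its endothelial level was not tested.

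Genes that define sinusoidal endothelium stood close to WT. Of 20 tested, 5 had a log2 fold change above 0 and 15 below, with a median of -0.08, and -0.03 without replicate 4. Clec4g was at 5906, 6079, 6182 and 5782 CPM at 36 h against 5422, 4824, 5187 and 5247 CPM in WT, fully above WT by a log2 fold change of 0.21 (95% interval -0.03 to 0.45). The mannose receptor Mrc1 was fully below, at 2867, 2655, 2838 and 1935 CPM against 2915 to 3210.2 CPM (log2 fold change -0.25, 95% interval -0.59 to 0.08). Stab2, a hyaluronan scavenger receptor, was at 4817, 4146, 5112 and 3846 CPM against 6297, 6175, 4715 and 5195 CPM (log2 fold change -0.32, 95% interval -0.68 to 0.04). The Wnt ligand gene Wnt2 of pericentral endothelium was at 344, 443, 423 and 318 CPM against 273 to 388 CPM. Cd209b, a lectin of sinusoidal endothelium, was at 91.1, 83.3, 71.5 and 59.6 CPM against 51.7 to 61.6 CPM, and its log2 fold change was 0.45, or 0.55 without replicate 4, when the groups did not overlap.

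**Figure D5:**
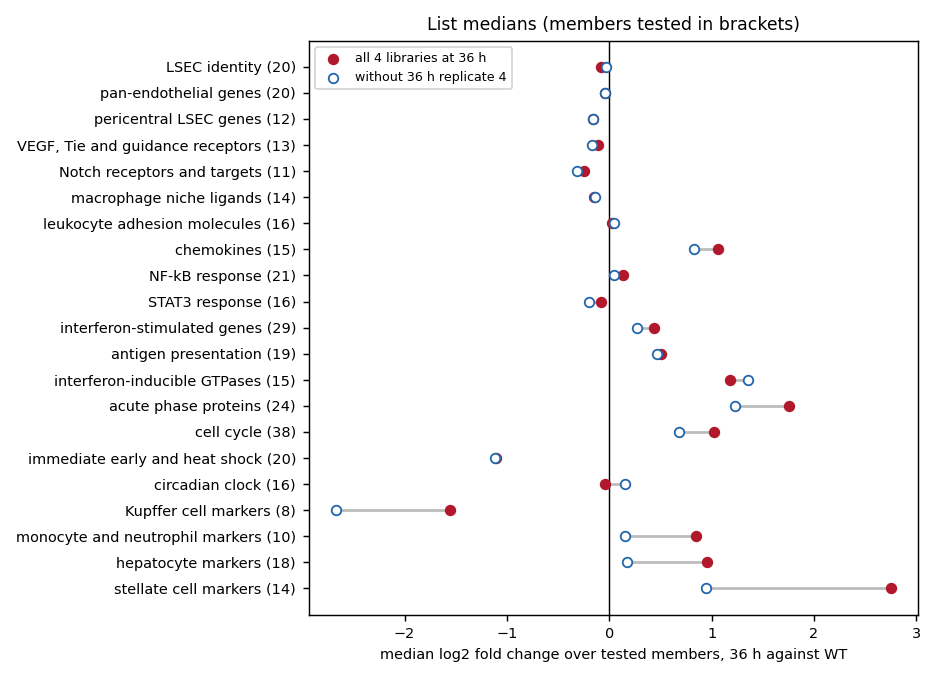
Median log2 fold change at 36 h against WT over the tested members of 21 gene lists (number tested in brackets), with all 4 libraries at 36 h (filled) and without replicate 4 (open). Interferon-inducible GTPases stand at 1.18 and 1.36, sinusoidal endothelial identity genes at -0.08 and -0.03, and stellate markers move from 2.75 to 0.95 when replicate 4 is left out.

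The same 36 h libraries differed more from those of 12 h. Of the 12286 genes, 1299 were higher (10.6%) and 1324 lower (10.8%) at 36 h than at 12 h at an edgeR adjusted p under 0.05. The 2 comparisons share the 36 h libraries, and the values are given side by side. Sele fell from a mean of 53.7 CPM at 12 h to 3.61 CPM at 36 h (log2 difference -3.90, edgeR adjusted p = 0.00391), with a WT mean of 1.46 CPM. Ccl2 fell from 66.9 to 5.50 CPM, with 1.12 CPM in WT, Vcam1 from 611 to 239.6 CPM, with 164 CPM in WT, and Cdkn1a from 244 to 73.4 CPM, with 80.4 CPM in WT. Csf1 fell from 703 to 458 CPM, with 300.5 CPM in WT. Lyve1, a hyaluronan receptor, fell from 1502 to 525 CPM, with 508 CPM in WT. Gas6 rose from 304 to 624 CPM, with 689 CPM in WT, and Mrc1 from 1567 to 2574 CPM, with 3064 CPM in WT. Of the immediate early and heat shock list 16 of 20 fell, and of 20 genes of MYC response and ribosome biogenesis 19 fell. Of the antigen presentation list 2 of 19 rose and 0 fell, Psmb9 and H2-T23, and of the GTPases 2 of 15 rose, Gbp2 and Gbp8, shares close to the 10.6% of all genes. Among the 38 cell cycle genes 9 rose, Tk1 and Birc5 among them, and 1 fell.

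The 36 h change in endothelium was tested against that in stellate cells and in hepatocytes in a single fit of all 36 libraries. The difference from stellate cells was called for 0 of 14104 genes (0%) by edgeR, with 567 genes at an unadjusted p under 0.05 and 7 genes called by DESeq2. The difference in log2 fold change between endothelium and stellate cells was 0.53 for Igtp, 0.29 for Irgm2, 0.34 for Tap1 and 0.45 for Pla2g16, and none of the 4 was called, so these changes are not shown to be particular to endothelium. The difference from hepatocytes was called for 1 gene (0.00709%), Rcor3, which encodes a corepressor protein. On the scaling of all 36 libraries Rcor3 had means of 24.6 CPM in WT and 21.5 CPM at 36 h in endothelium, and of 4.71 and 9.98 CPM in hepatocytes, a log2 difference of -1.28 (edgeR adjusted p = 0.0183). No gene was called when endothelial WT replicate 2, endothelial 36 h replicate 4 or hepatocyte 36 h replicate 3 was left out. Without endothelial 36 h replicate 1 the calls numbered 9 against hepatocytes and 31 against stellate cells.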

How the data were processed

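RNA of sorted liver cells was sequenced, and the authors deposited raw counts per gene symbol for each library. Per the submitters' processing notes, FastQC 0.11.4, Trimmomatic 0.35, TopHat2 2.1.0 and SAMtools 0.1.18 were used with mm10; which program counted the reads, with which strand setting and gene models, is not given in the sources used here. Without a stated strand, reads of overlapping genes cannot be told apart. The 5 lines per file that name no gene (5.77 to 7.43% as reads in no gene in these 8 libraries) were left out. Groups came from the sample titles.

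Counts were fitted with edgeR 4.0.16 in R 4.3.3 (quasi-likelihood test, TMM scaling, filterByExpr with a minimum count of 10 and a total of 15, Benjamini-Hochberg over all genes tested, called at an adjusted p under 0.05) over the 12 endothelial libraries, or all 36 for differences between cell types. The fit was tested on simulated data. Intervals are 95% and cover the spread between libraries. Libraries held 25404719 counts or more, so 1 CPM stands for at least 25.4 counts. Alternatives were RLE scaling, no filter, DESeq2 1.42.0, the compared groups alone, a replicate block and leaving out libraries.

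The gene lists and members were chosen with earlier results of these data known. Named genes were the called genes with the largest changes, up to 10 per direction at 5 CPM or more without overlap, up to 4 called members of each list, up to 4 markers per list of other cells at 1 CPM or more, a panel given whatever its result (Ccl2, Cxcl10, Vcam1, Icam1, Sele, Selp, Csf1, Dll1, Dll4, Tgfb1, Bmp2, Bmp6, Gas6, Stab2, Wnt2, Clec4g, Cdkn1a, Mki67) and, with fewer than 5 calls in a direction, the 5 genes with the smallest unadjusted p there. Some results are not reported here.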

Additional observations from a re-analysis of the deposited data

Results flagged for a closer look

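Single libraries standing apart from the other 3 of their group were sought with Dixon's test among 218 groups of 4 values. It marked 26. A rate of 1 in 20 would give 10.9 for independent groups of genes chosen without regard to their values. Some of these genes were chosen after their values were seen, and the groups share the same libraries. The 10.9 is therefore no measure of how many of the 26 arose by chance.

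In 12 of the 26, 36 h replicate 4 was the high library. Its stellate markers without Ecm1 summed to 338 CPM, against 12.1 to 52.9 CPM in the other 3, with Dcn at 123 CPM, Colec11 at 33.9 CPM and Col14a1 at 26.1 CPM. Its Kupffer markers Timd4 and Clec4f were each at 0.446 CPM and Folr2 at 1.56 CPM. The same library had Ccl2 at 16 CPM, Sele at 9.63 CPM, Madcam1 at 1.60 CPM, Cfb at 339 CPM and Notch4 at 227 CPM. It was the low library for Clock, at 47.9 CPM. Elsewhere at 36 h, replicate 1 was high for Stox2 (16.7 CPM) and replicate 2 low for Per1 (2.32 CPM).

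Among the WT libraries, replicate 2 was high for Cxcl10 (85.6 CPM), Cdkn1a (134 CPM), Egr1 (2730 CPM), Lyve1 (574 CPM) and Saa3 (0.0381 CPM, against 0 in the other 3), and low for Madcam1 (0 CPM). Replicate 3 was high for Tgtp1 (0.949 CPM) and Saa2 (0.0982 CPM) and low for Wnt2 (273 CPM). Replicate 4 was high for Csf1r (4.27 CPM) and replicate 1 low for Colec11 (1.12 CPM). The WT levels of Saa2, Saa3 and Madcam1 were near 0, and their differences rest on very few counts. Madcam1 stood at only 0.0327 to 0.0356 CPM in the other WT libraries.

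The 36 h change of Rcor3 differed between endothelium and hepatocytes by a log2 difference of -1.28 (edgeR adjusted p = 0.0183).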

How the results depend on the processing

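With DESeq2, 109 genes were called between 36 h and WT (87 higher, 22 lower), against 0 with edgeR; with the compared groups alone 2 were called, Saa1 and Saa2. Without 36 h replicates 3 and 4 together 1 was called, Pla2g16, and leaving out each library in turn gave 0 to 1. Without 36 h replicate 4, where edgeR called 1, the count was 3 with no filter, 50 with DESeq2, 5 with the compared groups alone, and 0 to 2 when a further library was left out. The difference from stellate cells gave 7 calls with DESeq2 and 0 to 31 with a library left out, against 0. That from hepatocytes gave 81 and 0 to 9, against 1. RLE scaling changed none of these counts by over 1.5 times, and the 36 h and 12 h comparison had 1784 to 3204 calls under every alternative, against 2623. The causes were not tested.

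Deviations of same-numbered endothelial WT and 36 h libraries correlated by 0.0261, 0.233, 0.0639 and 0.0515. Those of unlike numbers ranged from -0.264 to 0.203, and not every library correlated best with its own number. Whether the numbers pair these libraries was not tested, and so few pairs cannot exclude it. Across cell types, pairing by number was not tested. The Saa1 ratio to Alb at 12 h split by number alike in endothelium and stellate cells. The main fit of all 36 libraries took the cell types as unpaired. With the number as a replicate block 5 genes were called between 36 h and WT, 2 without replicate 4, 1 against stellate cells and 3 against hepatocytes, and Bmp6 stood at 0.026 on the log2 scale.

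Of 1528 values for 102 genes, 1445 kept their direction and side of the threshold, 44 passed it (34 of them with DESeq2) and 39, over 20 genes, changed sign. Log2 fold changes over the fits that left out 1 library were, for genes whose sign changed, Dll1 -0.35 to 0.043, Bmp6 -0.13 to 0.20, Cd79a -0.44 to 0.67, Cdkn1a -0.41 to 0.23, Wnt2 -0.00242 to 0.18, Csf1r -0.66 to 0.15, Lyz2 -0.64 to 0.33, C1qa -0.74 to 0.071, Tgfb1 -0.18 to 0.00423, Lyve1 -0.030 to 0.11, Alb -0.18 to 0.71, C1qb -0.18 to 0.73, Fcna -0.49 to 1.24. Without 36 h replicates 3 and 4 they were Cd79a -1.43, Alb -1.20, Apoa1 -0.60, Fgb -0.57, C1qb -1.01, Fcna -0.40, Bmp6 0.080, Mki67 -0.031. Without WT replicates 1 and 2 they were Cd79a -0.25, Dll1 0.17, Tgfb1 0.016, Bmp2 0.062, Bmp6 0.24, Gas6 0.035, Cdkn1a 0.21, Fos 0.92, Egr1 0.79. Both of these pairs were chosen after seeing the data.

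With 4 libraries a group, depth of 25404719 counts or more and a median SE of 0.163 on the log2 scale, 79.8% of genes had intervals within 2-fold.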

Other observations

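The circadian clock list had 8 of 16 members above 0 and 8 below, with a median log2 fold change of -0.04, or 0.16 without replicate 4. Per1, a repressor of the clock, stood at 3.11, 2.32, 3.18 and 3.12 CPM at 36 h against 5.68, 20.9, 3.5 and 9.10 CPM in WT, and Clock at 47.9 to 63.1 CPM against 72.3 to 83.7 CPM. Neither gene's groups overlapped and neither was called by edgeR, while DESeq2 called Per1. The labels used here give no hour of sampling. Mfge8, an opsonin for dying cells, was at 481 to 563 CPM at 36 h against 361 to 435 CPM in WT, and Hpse, which cleaves heparan sulfate, at 228 to 257 CPM against 174 to 189.9 CPM. Itgb7, an integrin chain of lymphocytes that pairs to bind MAdCAM-1, was at 17.8, 17.0, 32.3 and 23.6 CPM against 10.2 to 12.9 CPM. For all 3 genes the groups did not overlap, and all were called by DESeq2 but not by edgeR. They were chosen after their values were seen. The lymphocyte marker list summed to 1.76 to 8.70 CPM at 36 h and 1.94 to 7.43 CPM in WT, and its part in the Itgb7 level was not tested.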
